A study of Mus musculus with 8 samples.

Results

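The 40 genes described here encode the machinery of autophagy and mitophagy, and they were compared in the gastrocnemius muscle of arthritic mice with and without dipyridamole. They were given as a list of symbols, all 40 were found among the 21833 symbols of the count tables, and all 40 passed the low-count filter. The RA group (n = 4) held male C57BL/6J mice, 12 weeks old, that received pooled serum of arthritic K/BxN mice, 100 µL into the peritoneum on day 0 and again on day 2. The RA+Dipy group (n = 4) received the same serum and dipyridamole at 25 mg/kg every day from day 0, and muscle of both groups was collected on day 16. Every mouse had therefore received arthritogenic serum, and no muscle of mice without arthritis was analysed here. The series is about prevention of the muscle wasting that goes with arthritis, rheumatoid cachexia. Dipyridamole blocks nucleoside uptake, so that adenosine stays outside cells, and inhibits phosphodiesterases. In the labels the genotype reads K/BxN, the donor strain of the serum, although the design text describes C57BL/6J recipients. What the RA mice received in place of the drug is not stated in the labels, and the treatment protocol in the labels reads the same for all 8 libraries, so the groups come from the sample titles. The labels name the TruSeq system and the design text a NEBNext directional kit for the libraries.

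Autophagy encloses cytoplasm in a double membrane, the autophagosome, and delivers it to the lysosome for breakdown. A kinase complex starts the process, a lipid kinase complex marks the site, lipid transfer proteins enlarge the membrane, and a pair of ubiquitin-like conjugation systems attach LC3 and GABARAP proteins to it. Cargo receptors bind those proteins, and mitophagy receptors do so on mitochondria. In skeletal muscle the pathway supplies amino acids during fasting and removes damaged mitochondria, and both too much and too little of it are known to go with loss of muscle mass.

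No autophagy or mitophagy gene was called between RA+Dipy and RA muscle. By edgeR's quasi-likelihood test, 0 of the 40 genes passed an adjusted p of 0.05 in either direction, where 0.0% of all 12755 genes tested did, and the smallest adjusted p among the 40 was 0.882. In RA+Dipy 22 of the 40 were higher and 18 lower. The median of their log2 fold changes was 0.07, beside 0.02 over all genes tested. At an unadjusted p under 0.05 there was 1 gene, Atg101, where 3.83% of all genes reached that level. It was lower in RA+Dipy, as were 2.15% of all genes at that level, and 0 of the 40 were higher, against 1.68% of all genes. The groups did not overlap for 0 of the 40 genes, against 2.72% of all genes. For 23 of the 40 the 95% interval of the fold change lay wholly within 2-fold up or down, against 46.0% of all genes. For the other 17 these libraries do not exclude a difference of that size.

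**Figure D1:**
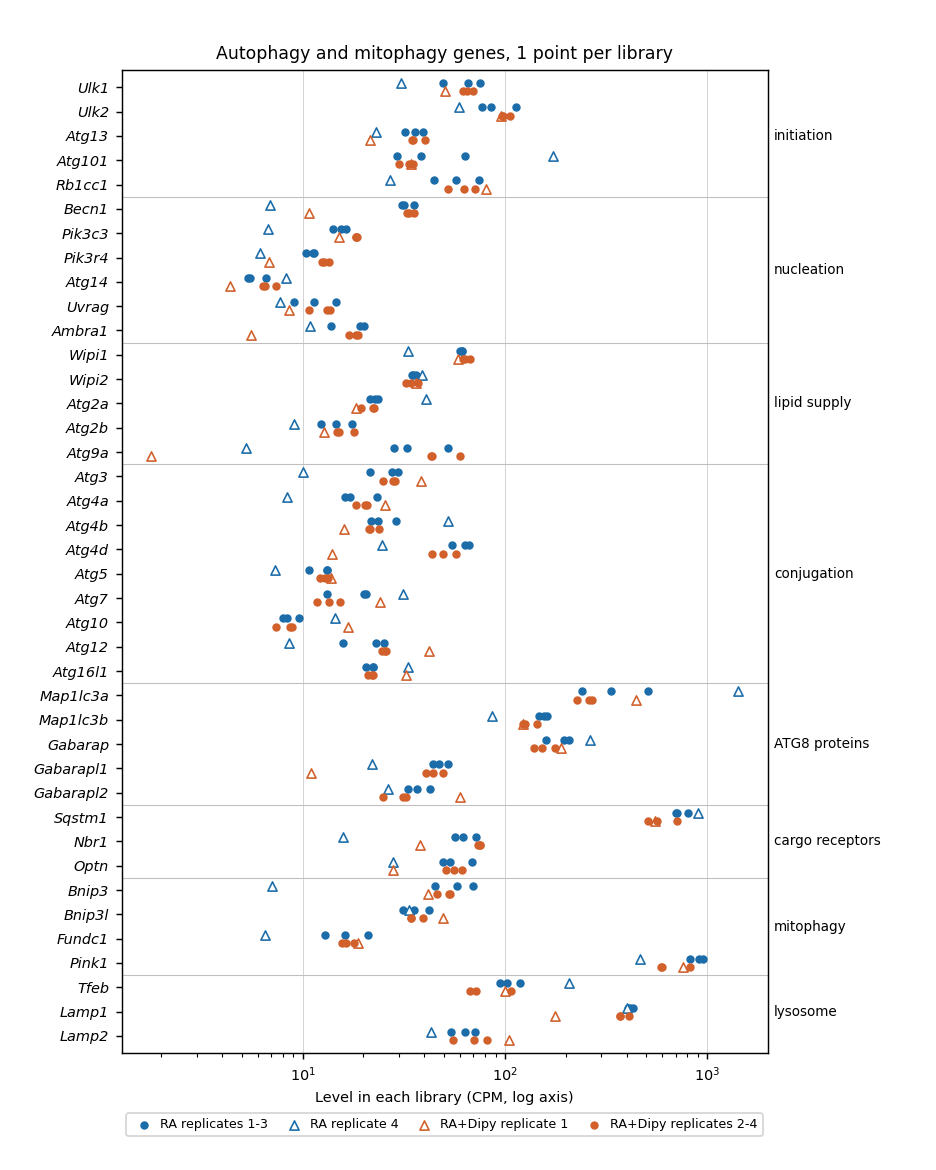
Level of each of the 40 genes in each library, in CPM (counts adjusted for library size) on a log axis, grouped by stage of the pathway; blue is RA, orange RA+Dipy, and open triangles are RA replicate 4 and RA+Dipy replicate 1. For every gene the points of the 2 groups overlap, and the open triangles are often the outermost points of their group, as for Atg9a at 5.24 and 1.78 CPM.

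The libraries held 16405268 to 50647761 counts, and the 40 genes took 0.313% to 0.435% of them. The lowest count of any member in any library was 27, so each member was measured above the limit of 3 counts that a count of 0 allows. RA replicate 4 and RA+Dipy replicate 1 stood apart. They were also the libraries with the fewest counts, 16718884 and 16405268, and the part of depth in their values was not tested. Over the 4757 genes with a mean of at least 20 CPM, their deviations from the 8-library median had an SD of 1.18 and 0.80 log2 units, and those of the other 6 libraries 0.17 to 0.34. The same held for the 40 genes, with an SD of 1.13 and 0.94 log2 units and of 0.11 to 0.30. A deviation of over 2-fold was seen for 16 of them in RA replicate 4, for 6 in RA+Dipy replicate 1 and for 0 in each other library. RA replicate 4 was the lowest of the RA libraries for 27 of the 40 genes and the highest for 12. RA+Dipy replicate 1 was the lowest of its group for 21 and the highest for 14.

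**Figure D2:**
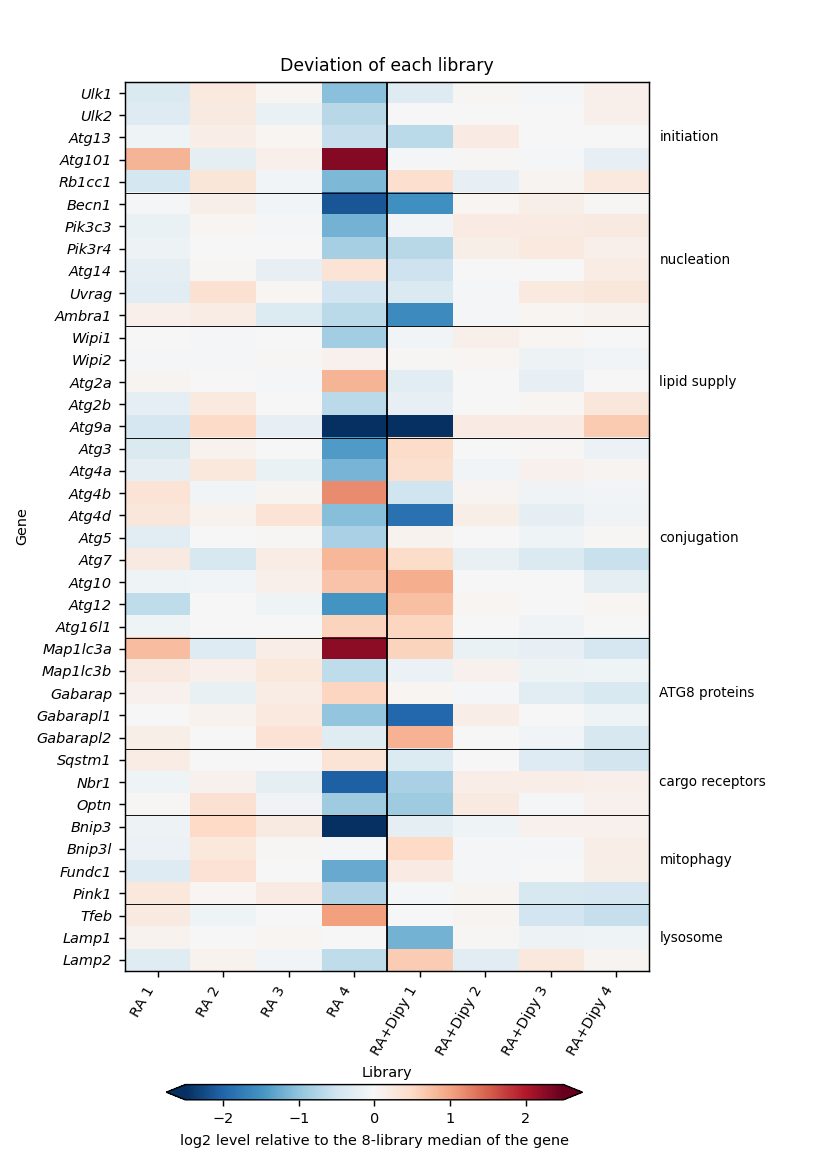
Deviation of each library from the 8-library median of each gene, as log2 of CPM + 0.5; rows are the 40 genes by stage, columns the 8 libraries, blue is below and red above the median. RA replicate 4 and RA+Dipy replicate 1 carry the strongest colours, down to −4.07 for Atg9a in RA+Dipy replicate 1, which lies past the end of the colour scale.

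With those 2 libraries left out, 3 mice remained in each group. Without them 0 of the 40 genes passed the adjusted threshold (0.0% of 12796 genes did; smallest adjusted p among the 40, 0.423), and 1, Pink1, had an unadjusted p under 0.05, where 11.4% of all genes did. There were 21 genes higher and 19 lower, and the median was 0.01. A total of 33 genes kept the sign of their fold change, and for 28 it was smaller in size. The median standard error (SE) of the 40 log2 fold changes was 0.30 with all libraries and 0.15 without the 2, and 39 of the 40 intervals then lay within 2-fold. The exception was Map1lc3a, whose interval reached from −1.06 to 0.03. Over all genes the median SE was 0.34 and 0.19, and the share of intervals within 2-fold 46.0% and 80.3%. The 2 libraries were left out because they deviated most, so narrower intervals follow from that choice. Among the 3 libraries left in each group, 4 of the 40 genes had every RA+Dipy value above every RA value (7.92% of all genes did) and 2 had every one below (6.21%), together 6 against 14.1% of all genes. A limma-voom fit that gives such libraries a lower weight in place of leaving them out called 0 of the 40 at an adjusted p of 0.05, against 1.04% of all genes. It placed 10 at an unadjusted p under 0.05, against 28.5%. Of those 10, 9 were lower in RA+Dipy and 1 higher, and the split by direction over all genes was not counted.

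**Figure D3:**
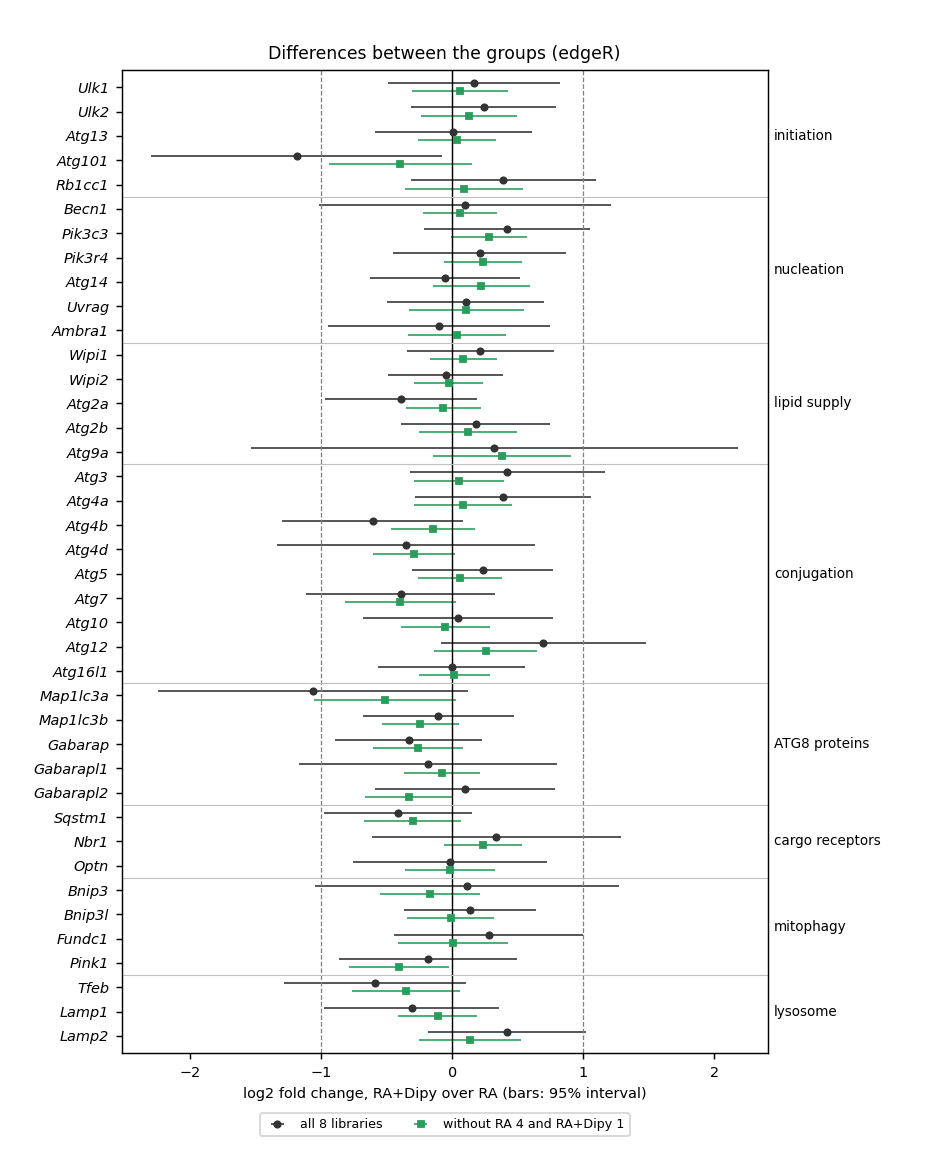
log2 fold change of each gene, RA+Dipy over RA, with its 95% interval (edgeR), from all 8 libraries (black) and without RA replicate 4 and RA+Dipy replicate 1 (green); dashed lines mark 2-fold. The black interval of Atg101 (−2.30 to −0.08) is the one that leaves out 0, and the green intervals have a median SE of 0.15 against 0.30.

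A few members made up most of the signal. Pink1, Sqstm1, Map1lc3a and Lamp1 together took 52.8% to 69.2% of the counts of the 40 genes. On a scale of CPM per kilobase of the longest coding transcript, which allows genes to be compared, the median level over the 8 libraries was 332 for Pink1, 273 for Map1lc3a, 264 for Sqstm1, 181 for Lamp1 and 135 for Gabarap. The ranges over libraries of these 5 overlap with those of their neighbours in that order. The next gene, Map1lc3b, had a median of 51.3 and a highest value of 61.7, below the lowest value of Gabarap, 103. At the bottom of the order, Uvrag, Atg2b and Atg14 had medians of 2.15, 1.96 and 1.73, with overlapping ranges. The high end was thus held by a mitophagy kinase, an LC3 and a GABARAP gene, a cargo receptor and a lysosomal membrane protein. All 6 genes of the lipid kinase complex were low, with a highest value of 8.17 in any library.

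The initiation complex joins the kinases ULK1 and ULK2 to ATG13, ATG101 and FIP200, the last encoded by Rb1cc1. Of its 5 genes 4 were higher and 1 lower in RA+Dipy (median 0.17, and 0.06 without the 2 libraries). Ulk1, which starts autophagy when nutrients are short, was at 49.4, 75.1, 65.5 and 30.5 CPM in RA replicates 1 to 4 and at 50.9, 65.3, 62.0 and 69.6 CPM in RA+Dipy replicates 1 to 4. The RA values enclose the whole RA+Dipy range, and the lowest is RA replicate 4. Ulk1 had a log2 fold change of 0.17 (SE 0.30, adjusted p = 0.903), and −0.02 without RA replicate 4. Atg101, which stabilises ATG13, was at 63.5, 29.2, 38.3 and 173 CPM in RA and at 34.3, 35.3, 33.6 and 30.1 CPM in RA+Dipy. The RA+Dipy libraries lie within a narrow band inside the RA range, and RA replicate 4 is far above all others. Atg101 had a log2 fold change of −1.19 (SE 0.50, unadjusted p = 0.0385, adjusted p = 0.882). Leaving out RA replicate 4 gave −0.38, and leaving out RA+Dipy replicate 1 as well gave −0.40 (adjusted p = 0.495). Ulk2, Atg13 and Rb1cc1 had log2 fold changes of 0.24, 0.01 and 0.39, and of 0.13, 0.04 and 0.09 without the 2 libraries.

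The nucleation complex makes the lipid phosphatidylinositol 3-phosphate at the site of the new membrane. Its catalytic subunit is Pik3c3 (VPS34), with the regulatory subunit Pik3r4, the scaffold Becn1 and the partners Atg14, Uvrag and Ambra1. Of the 6 genes 4 were higher and 2 lower, with a median of 0.10. Without the 2 libraries 6 of 6 were higher with a median of 0.16 and a range of 0.03 to 0.28. In that fit 51.3% of all genes were higher, and the 6 genes, read from the same libraries, are not independent points. Becn1 was at 31.8, 35.7, 30.9 and 6.93 CPM in RA and at 10.8, 33.5, 35.7 and 32.8 CPM in RA+Dipy. The low value of each group is its library that stood apart, and the other 6 lie between 30.9 and 35.7 CPM. Becn1 had a log2 fold change of 0.10 (SE 0.50, adjusted p = 0.967) and 0.06 without the 2 libraries, with an interval from −0.22 to 0.34. Leaving out RA replicate 4 alone gave −0.21, and RA+Dipy replicate 1 alone 0.36. Becn1 shares 3104 exon bases with Cntd1 on the other strand, and the counting did not use strand. Pik3c3 was at 14.2, 16.4, 15.4 and 6.76 CPM in RA and at 15.2, 18.4, 18.4 and 18.7 CPM in RA+Dipy. RA+Dipy replicate 1 lies among the RA values, and the other 3 are above them all. Pik3c3 had a log2 fold change of 0.42 (SE 0.29, adjusted p = 0.882), and 0.28 (SE 0.13, adjusted p = 0.437) without the 2 libraries. The other members had log2 fold changes from −0.10 for Ambra1 to 0.21 for Pik3r4.

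Lipid supply to the growing membrane depends on WIPI proteins, which read the lipid mark, on the ATG2 proteins, which carry lipids, and on ATG9A, a lipid scramblase in vesicles. Of the 5 genes 3 were higher and 2 lower, with a median of 0.18 that was 0.08 without the 2 libraries. Wipi2 was the most even member, at 32.5 to 38.8 CPM over all 8 libraries, with a log2 fold change of −0.05 and an interval from −0.49 to 0.39. Atg2a was at 23.6, 22.8, 21.6 and 40.7 CPM in RA and at 18.3, 22.3, 19.5 and 22.7 CPM in RA+Dipy. Only RA replicate 4 lies outside a range of 18.3 to 23.6 CPM. Atg2a had a log2 fold change of −0.39 (SE 0.26, adjusted p = 0.882), and −0.12 without that library. Atg9a, singled out after its values were seen, was at 28.3, 52.6, 32.8 and 5.24 CPM in RA and at 1.78, 43.8, 43.3 and 59.9 CPM in RA+Dipy. Both libraries that stood apart are far below the rest, on 27 counts in RA+Dipy replicate 1. Atg9a had a log2 fold change of 0.32 with the widest SE of the 40, 0.84, and 0.38 (SE 0.24, adjusted p = 0.497) without the 2 libraries. Atg9a shares 1832 exon bases with Gm29253 on the same strand and 46 with Ankzf1 on the other.

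Conjugation enzymes link LC3 and GABARAP proteins to the membrane lipid. ATG4 proteases trim the LC3 and GABARAP precursors, and ATG7 activates both these and ATG12. ATG3 then carries the LC3 and GABARAP proteins, ATG10 carries ATG12 to ATG5, and the complex of ATG12, ATG5 and ATG16L1 completes the step. Of the 9 genes 5 were higher and 4 lower, with a median of 0.04 that was 0.02 without the 2 libraries. Atg12 was at 15.9, 25.2, 23.2 and 8.54 CPM in RA and at 42.0, 25.7, 24.6 and 25.9 CPM in RA+Dipy. The lowest of the 8 values is RA replicate 4 and the highest RA+Dipy replicate 1, while RA replicate 2 lies inside the RA+Dipy range. Atg12 had a log2 fold change of 0.69 (SE 0.35, adjusted p = 0.882), the highest of the 40, and 0.26 (SE 0.18, adjusted p = 0.531) without the 2 libraries. Leaving out either of them alone gave 0.48. Atg4b, the protease most active on LC3, was at 29.0, 21.8, 23.7 and 52.2 CPM in RA and at 16.0, 23.9, 21.3 and 21.7 CPM in RA+Dipy. Its extremes are again those 2 libraries. Atg4b had a log2 fold change of −0.61 (SE 0.31, adjusted p = 0.882), −0.25 without RA replicate 4 and −0.15 without both. Atg5 was at 10.8, 13.2, 13.3 and 7.27 CPM in RA and at 13.9, 12.96, 12.2 and 13.4 CPM in RA+Dipy, a log2 fold change of 0.23 (SE 0.24, adjusted p = 0.885). Apart from RA replicate 4 the values span 10.8 to 13.9 CPM. Without RA replicate 4 the log2 fold change was 0.09, and without both libraries 0.06. Atg7 and Atg4d, at −0.39 and −0.35 with all libraries, were at −0.40 and −0.29 without the 2, each with an adjusted p of 0.443.

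LC3 and GABARAP proteins, the ATG8 family, coat the membrane and hold the cargo receptors. Of the 5 genes 1 was higher and 4 lower in RA+Dipy, with a median of −0.18. Without the 2 libraries 5 of 5 were lower, with a median of −0.26 and a range of −0.51 to −0.08, and 0 passed the adjusted threshold (smallest adjusted p 0.437). In that fit 51.3% of all genes were higher, and the median over all genes was 0.01. The 5 genes share the same libraries and are not independent points. Map1lc3a (LC3A) was at 513, 242, 336 and 1426 CPM in RA and at 446, 271, 262 and 226 CPM in RA+Dipy. RA replicate 4 is more than any other library by a wide margin, and RA replicates 2 and 3 lie among the RA+Dipy values. Map1lc3a had a log2 fold change of −1.06 (SE 0.53, adjusted p = 0.882). Leaving out RA replicate 4 gave −0.25 and leaving out RA+Dipy replicate 1 gave −1.31. With both left out the value was −0.51 (SE 0.24, adjusted p = 0.441).

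Map1lc3b (LC3B), the usual marker of autophagosomes at the protein level, was at 157, 148, 163 and 86.8 CPM in RA and at 122, 145, 123 and 126 CPM in RA+Dipy. RA replicate 4 is the lowest of the 8, and the other 3 RA libraries are above all 4 RA+Dipy libraries. Map1lc3b had a log2 fold change of −0.11 (SE 0.26, adjusted p = 0.931), and −0.24 (SE 0.13, adjusted p = 0.465) without the 2 libraries. In RA replicate 4 the LC3 genes thus stood at opposite ends. The ratio of Map1lc3a to Map1lc3b, per kilobase of transcript, was 38.9 there and 8.62 in RA+Dipy replicate 1, against 3.87 to 7.73 in the other 6. Gabarap was at 197, 161, 207 and 265 CPM in RA and at 189, 177, 153 and 139 CPM in RA+Dipy, with the highest value in RA replicate 4. Gabarap had a log2 fold change of −0.33 (SE 0.25, adjusted p = 0.882), −0.18 without RA replicate 4 and −0.26 without both libraries. Gabarapl1 was at 44.2, 47.1, 52.2 and 22.1 CPM in RA and at 10.95, 49.6, 44.3 and 40.8 CPM in RA+Dipy. Its low values are the 2 libraries that stood apart, and the other 6 lie between 40.8 and 52.2 CPM. Gabarapl1 had a log2 fold change of −0.18 (SE 0.44, adjusted p = 0.931), 0.12 without RA+Dipy replicate 1 and −0.08 without both. Gabarapl2 was higher with all libraries (0.10) and lower without the 2 (−0.33, adjusted p = 0.437).

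Cargo receptors carry ubiquitin-tagged proteins and organelles into autophagosomes, and are themselves degraded there. Sqstm1 (p62), the best known of them, was at 806, 704, 709.6 and 902 CPM in RA and at 556, 711.5, 567 and 513 CPM in RA+Dipy. Of the RA+Dipy libraries 3 lie below every RA library, and RA+Dipy replicate 2 lies just above RA replicates 2 and 3. The RA mean was 780.5 ± 93.6 CPM (SD, n = 4) and the RA+Dipy mean 587 ± 86.4 CPM (SD, n = 4). Sqstm1 had a log2 fold change of −0.41 (SE 0.26, adjusted p = 0.882), and −0.30 (SE 0.16, adjusted p = 0.466) without the 2 libraries. It kept its sign under each of 18 alternative settings, in a range from −0.52 to −0.30. Of 21 named genes 6 changed sign in some setting, and all settings reuse the same libraries. Sqstm1 shares 580 exon bases with Mrnip on the other strand. Nbr1, a relative of p62, had a log2 fold change of 0.34 and Optn, a receptor for damaged mitochondria and bacteria, of −0.02, with adjusted p of 0.888 and 0.989. Without the 2 libraries they were at 0.23 and −0.02.

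Mitophagy was represented by the receptors Bnip3, Bnip3l (NIX) and Fundc1 in the outer mitochondrial membrane and by Pink1, the kinase that marks damaged mitochondria. Of the 4 genes 3 were higher and 1 lower with all libraries, and 1 was higher and 3 lower without the 2. Pink1 was at 952, 819.8, 910.3 and 467 CPM in RA and at 758, 823, 600.0 and 589.5 CPM in RA+Dipy. RA replicate 4 is the lowest value of all, the other RA libraries are the highest but for RA+Dipy replicate 2, and the groups overlap with and without it. Pink1 had a log2 fold change of −0.18 (SE 0.31, adjusted p = 0.898). Without the 2 libraries it was −0.41 (SE 0.17, interval −0.79 to −0.02, unadjusted p = 0.0391, adjusted p = 0.423), the smallest adjusted p of the 40 in that fit. Bnip3, a receptor induced in atrophy and by low oxygen, was at 45.2, 69.9, 58.2 and 7.10 CPM in RA and at 41.9, 46.3, 53.3 and 53.7 CPM in RA+Dipy. Apart from RA replicate 4 the libraries of both groups overlap. Bnip3 had a log2 fold change of 0.11 (SE 0.52, adjusted p = 0.963), −0.23 without RA replicate 4 and −0.17 without both libraries. Bnip3l was at 31.4, 42.2, 35.6 and 33.6 CPM in RA and at 49.4, 34.2, 34.3 and 39.2 CPM in RA+Dipy. It did not share the low value of Bnip3 in RA replicate 4, where the ratio of Bnip3 to Bnip3l per kilobase was 0.393, against 1.57 to 3.08 in the other 7 libraries. Bnip3l had a log2 fold change of 0.14 (SE 0.23, adjusted p = 0.898), and −0.01 without the 2 libraries. Fundc1 was at 12.9, 21.1, 16.2 and 6.51 CPM in RA and at 18.8, 15.7, 16.3 and 18.0 CPM in RA+Dipy, again lowest in RA replicate 4. Fundc1 had a log2 fold change of 0.28 (SE 0.32, adjusted p = 0.885), and 0.01 without the 2 libraries.

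The lysosomal end was represented by Tfeb, the transcription factor that switches on autophagy and lysosome genes, and by Lamp1 and Lamp2, the main proteins of the lysosomal membrane. Tfeb was at 119, 94.5, 102 and 207 CPM in RA and at 100.0, 107, 72.4 and 67.6 CPM in RA+Dipy. RA replicate 4 is the highest, RA+Dipy replicates 3 and 4 are the lowest, and the others overlap. Tfeb had a log2 fold change of −0.59 (SE 0.31, adjusted p = 0.882), −0.27 without RA replicate 4 and −0.35 (SE 0.18, adjusted p = 0.458) without both libraries. Lamp1, described in full after its values were seen, was at 430.5, 407, 417 and 399.9 CPM in RA and at 178, 411.5, 371 and 373 CPM in RA+Dipy. RA+Dipy replicate 1 has less than any other library, and the remaining 7 lie between 371 and 430.5 CPM. Lamp1 had a log2 fold change of −0.31 (SE 0.30, adjusted p = 0.882), and −0.10 without that library. Lamp2, needed for fusion of autophagosomes in muscle, was at 54.2, 71.5, 63.9 and 43.4 CPM in RA and at 104, 55.4, 81.2 and 70.6 CPM in RA+Dipy. Its lowest value is RA replicate 4 and its highest RA+Dipy replicate 1, while RA replicate 4 is the highest for Tfeb. Lamp2 had a log2 fold change of 0.42 (SE 0.27, adjusted p = 0.882), and 0.14 without both libraries. Lamp1 and Lamp2 thus differed in sign, and the difference between them was not tested.

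TFEB binds E-boxes, the palindrome CACGTG, which other factors such as MYC and the clock proteins also bind. RefSeq promoters (GRCm38.p6, 250 bases before to 50 after a gene's start) were matched by symbol for 33 of the 40 genes, in 37 windows because some genes have several. Of the 37, 30 could be matched by sequence to the first bases of a GENCODE vM21 transcript of the gene. The windows of Atg7 and Atg14 lie inside the gene as GENCODE draws it, and stand for a RefSeq start downstream of its outermost one. In them CACGTG was found for 6 genes (18.2%), against 8.09% of 27025 genes with a promoter in the table, and the longer GTCACGTG, searched on both strands and overlapping the first, for 4 (12.1% against 2.55%). The cyclic AMP response element TGACGTCA was found for Atg5 alone (3.03% against 2.03%), and TGTTTAC, a FOXO motif searched on both strands, for 0 (against 4.05%). The 27025 genes are more than the 21833 symbols of the count tables, so they include genes outside them. The 33 all passed the low-count filter. The shares are thus of unlike sets, and the difference between them was not tested. The stretches that hold the E-boxes are shown because they carry the letters that TFEB is known to bind; capitals are CACGTG and, in Atg5, also TGACGTCA, and each runs 5′ to 3′ on the strand of the gene with 12 bases on either side.
Lamp1, chr8:13159088-13159163, plus strand: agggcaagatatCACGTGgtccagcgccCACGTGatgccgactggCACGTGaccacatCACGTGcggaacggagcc
Atg3, chr16:45158723-45158775, plus strand: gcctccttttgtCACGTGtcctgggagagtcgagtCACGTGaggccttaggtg
Atg5, chr10:44268313-44268357, plus strand: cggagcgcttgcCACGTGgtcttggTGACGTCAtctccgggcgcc
Atg7, chr6:114670952-114670981, plus strand: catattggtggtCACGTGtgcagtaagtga
Atg14, chr14:47568418-47568447, minus strand: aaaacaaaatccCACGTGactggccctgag
Bnip3, chr7:138909597-138909626, minus strand: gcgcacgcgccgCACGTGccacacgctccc

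Lamp1 held 4 E-boxes within 61 bases of its start and Atg3 held 2. The 6 genes did not share a direction: the log2 fold changes were −0.31 for Lamp1, 0.42 for Atg3, 0.23 for Atg5, −0.39 for Atg7, −0.06 for Atg14 and 0.11 for Bnip3, with 0 past the adjusted threshold. Without the 2 libraries they were −0.11, 0.05, 0.06, −0.40, 0.22 and −0.17. A match of letters is a description of the window and not evidence of binding.

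The base composition of the transcripts moved with the fold changes. Over the 40 genes the log2 fold change had a Pearson r of −0.68 (Spearman −0.69) with the GC content of the longest coding transcript, and −0.44 without the 2 libraries. The genes are not independent points, since all share the same 8 libraries. Of the 20 genes of lower GC content (38.7% to 50.8%), 17 were higher in RA+Dipy and 3 lower. Among the 20 of higher GC content, up to 63.2%, 5 were higher and 15 lower. Map1lc3a and Tfeb, with log2 fold changes of −1.06 and −0.59, had GC contents of 63.1% and 63.2%. In RA replicate 4 the r of GC content with the deviation of the 40 genes from their median was 0.45, and in RA+Dipy replicate 1 it was −0.33. Over all genes with a transcript, 98.9% of those tested, the r of GC content with the fold change was −0.48, and −0.20 without the 2 libraries, so the relation is one of the whole tables. Its part in the fold changes of the 40 genes was not tested.

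**Figure D4:**
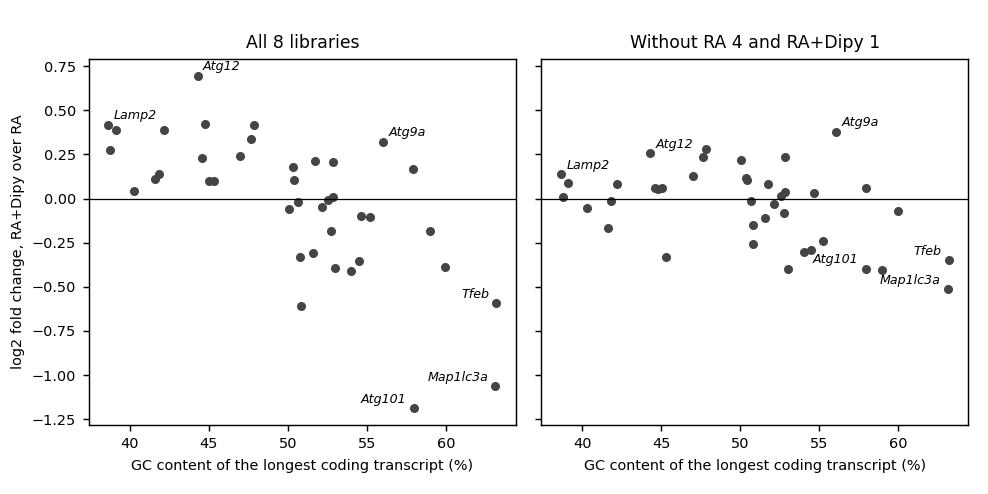
GC content of the longest coding transcript (horizontal, %) against the log2 fold change of RA+Dipy over RA (vertical) for the 40 genes, 1 point per gene, from all 8 libraries (left) and without RA replicate 4 and RA+Dipy replicate 1 (right). On the left the points fall from Lamp2 (0.42 at 38.7%) to Map1lc3a (−1.06 at 63.1%); on the right they lie between −0.51 and 0.38.

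Of the other genes of the pathway, 103 in 7 lists, 100 were tested. Of these 0 passed the adjusted threshold and 4 were at an unadjusted p under 0.05 (4.0%, against 3.83% of all genes). The 4 were lower in RA+Dipy and highest in RA replicate 4. They were Akt1s1, a brake on the kinase mTOR (log2 fold change −0.97, SE 0.37; 97.3 to 197 CPM in RA+Dipy and 163 to 480 in RA), Bcl2l1, which encodes BCL-XL, a binding partner of Beclin 1 (−1.004, SE 0.35), Atg16l2, a relative of Atg16l1 (−0.99, SE 0.39) and Mcoln1, a calcium channel of the lysosome (−1.10, SE 0.48). Without RA replicate 4 they were at −0.60, −0.55, −0.51 and −0.28. All 4 Bcl2l1 values in RA+Dipy, 10.3, 16.2, 16.97 and 14.4 CPM, lay below the lowest in RA, where they were 21.8, 19.7, 22.8 and 52.1 CPM. The groups did not overlap for 2.72% of all genes. Among the 100, Rab7 did not overlap either (169 to 196 CPM in RA+Dipy, 203 to 243 CPM in RA). How many of the 100 did so was not counted, so Bcl2l1 and Rab7 are single cases that cannot be set against that share.

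By list, 10 of 18 genes of mTORC1 and AMPK control, which restrain and start autophagy, were higher, with a median of 0.13 that was 0.08 without the 2 libraries. Of the other core factors 9 of 15 were higher (median 0.15, and 0.015 without the 2). The other selective receptors had 7 of 13 higher (0.02, and −0.04 without the 2) and the other mitophagy factors 6 of 14 (−0.17, and −0.07). For fusion of autophagosomes with lysosomes 4 of 12 were higher with a median of −0.10, and 7 of 12 with a median of 0.05 without the 2 libraries. Of the transcription factors 1 of 6 was higher (−0.13, and −0.06). Lysosomal acidification, hydrolases and membrane proteins had 7 of 22 higher and a median of −0.32, which was −0.08 without the 2 libraries. Their summed level was 5955 CPM in RA replicate 4 and 2786 to 3405 CPM in the other RA libraries. Atg9b, Ccpg1 and Tfec did not pass the low-count filter.

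Markers of the muscle fibre and of other cells were read beside these values, since whole muscle was sequenced and fewer cells of a type cannot be told apart from less RNA per cell. The 8 fast-fibre markers summed to 164666 to 228754 CPM in RA and 168167 to 188099 CPM in RA+Dipy. Each library thus carried a strong signal of fast skeletal muscle, which does not by itself identify the gastrocnemius. Of the 8 markers 3 were higher in RA+Dipy (median −0.06, and −0.05 without the 2 libraries). Of the 12 macrophage markers 10 were higher in RA+Dipy (median 0.64), and without the 2 libraries 12 of 12 (median 0.69). Of the marker lists given here 0 genes passed the adjusted threshold. At an unadjusted p under 0.05, where 3.83% of all genes were, there were 4 of 12 macrophage, 4 of 7 fibroblast, 3 of 5 Schwann cell and 2 of 5 adipocyte markers. Of the fast-fibre, slow-fibre, endothelial, satellite cell, red blood cell and neutrophil markers tested, 0 were at that level. Without the 2 libraries 11.4% of all genes were at that level. There were then 8 of 12 macrophage, 5 of 7 fibroblast, 2 of 5 Schwann cell and 3 of 5 adipocyte markers. Endothelial markers had 2 of 5, fast-fibre 1 of 8, satellite cell 1 of 4, red blood cell 1 of 5 and slow-fibre 0 of 7. The macrophage markers summed to 131 to 323 CPM in RA and 177 to 359 CPM in RA+Dipy, and 0 of them were at 0 in any library. Fibroblast markers had 6 of 7 higher (median 0.79; 1417 to 2745 CPM in RA and 1846 to 3667 CPM in RA+Dipy), and 7 of 7 with a median of 0.76 without the 2 libraries. Endothelial markers had 4 of 5 higher (0.29; 164 to 226 and 126 to 284 CPM), with a median of 0.26 without the 2. Adipocyte markers had 4 of 5 higher (1.41; 102 to 477 and 158 to 718 CPM), and 5 of 5 with a median of 1.96 without the 2. All 5 Schwann cell markers were lower (−0.98; 171 to 465 and 114 to 203 CPM), also without the 2 (−0.51). So were all 4 satellite cell markers (−0.21, and −0.22 without the 2; 28.0 to 49.5 and 22.9 to 29.5 CPM). Of 7 slow-fibre markers 5 were lower (−0.40, and −0.59 without the 2; 1079 to 2594 and 1052 to 2598 CPM). Red blood cell genes summed to 1545 CPM in RA replicate 4 and 799 CPM in RA+Dipy replicate 1. The other libraries held 149 to 263 CPM in RA and 153 to 274 CPM in RA+Dipy. Of the 5 genes 3 were higher, with a median of 0.54 that was 0.016 without the 2 libraries. Neutrophil markers summed to at most 3.23 CPM, with Ly6g and Mmp8 at 0 in some library. Lysosomal genes such as Lamp1 and Lamp2 are expressed in macrophages as well as in fibres, and the part of any of these cells in the values of the 40 genes was not tested.

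Positions are those of GENCODE vM21 (GRCm38). Pink1 is on chromosome 4 at 138313409 to 138326307, Sqstm1 on chromosome 11 at 50199366 to 50210827, and Map1lc3a on chromosome 2 at 155276297 to 155278073. Atg101 lies on chromosome 15 at 101284272 to 101290945 and Tfeb on chromosome 17 at 47737030 to 47792419. Exon bases shared with another annotated gene were found for 14 of the 40, in 13 cases on the antisense side. Besides Becn1, Atg9a and Sqstm1, they include Gabarapl1 (570 bases), Bnip3 (504), Lamp1 (249) and Map1lc3b (58) on the other strand. Pink1 shares 179 bases on the same strand.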

How the data were processed

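The authors deposited, per library, raw counts per protein-coding gene. Per the submitters' processing notes and design text, reads (single, 100 nt) went through fastp 0.20.0, then STAR 2.7.3a on GRCm38.p6, then HTSeq in a mode that ignores strand. No source used here names the annotation release. Counts of the 24 repeated symbols were summed. Genes were kept by filterByExpr (minimum count 10), scaled by TMM and tested with edgeR 4.0.16 (quasi-likelihood, robust, group as the sole term) in R 4.3.3, two-sided, with Benjamini-Hochberg adjustment over all 12755 genes at a threshold of 0.05. CPM use TMM-scaled totals of the filtered tables. Intervals of 95% come from the SE and degrees of freedom of that fit. Count limits cover counting error only. The design text gives 4 mice a group. The test was tried on simulated counts.

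The 40 members and all lists were chosen with earlier results of these data known. Given in full are 19 members: the 10 with the smallest p, the one with the smallest p in each stage, and 11 chosen by name. Atg9a, Lamp1 and the genes of the closing section were added after their values were seen. Of each other list at most 2 genes are named with values. The alternatives were other scaling (DESeq2 size factors, upper quartile), no filter or a mean of at least 1 CPM, no robust step, DESeq2 1.42.0, limma 3.58.1 (voom, with and without library weights), the replicate number as a block, and leaving out each library or both that stood apart. The lymphocyte marker list is not reported here.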

Additional observations from a re-analysis of the deposited data

Results flagged for a closer look

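Within a group of 4 libraries, a value was picked out where its gap to the nearest other value was too large a share of the group's range by Dixon's 95% limit. This picked out 19 of the values in 80 groups (40 genes in 2 groups), where chance alone gives about 1 in 20 groups, or 4. The 80 groups share the same 8 libraries and are not independent, so the excess over 4 is a description and not a test. In RA replicate 4 the low values were Becn1 at 6.93 CPM, Pik3c3 at 6.76, Pik3r4 at 6.17, Wipi1 at 33.3, Map1lc3b at 86.8 and Nbr1 at 15.9 CPM, and the high ones Atg2a at 40.7 and Atg16l1 at 33.1 CPM. In RA+Dipy replicate 1 the low values were Becn1 at 10.8 CPM, Pik3c3 at 15.2, Pik3r4 at 6.80, Ambra1 at 5.54, Atg9a at 1.78, Gabarapl1 at 10.95, Nbr1 at 38.3 and Lamp1 at 178 CPM, and the high ones Atg12 at 42.0 and Atg16l1 at 32.3 CPM. The remaining value was Map1lc3b at 145 CPM in RA+Dipy replicate 2, the highest of its group, in which the others held 122 to 126 CPM. Thus 18 of the 19 came from the 2 libraries that stood apart. Those libraries were already known to deviate over the whole tables, so this count is not separate evidence. Becn1, Pik3c3, Pik3r4 and Nbr1 were low in both of these libraries, and Atg16l1 was high in both.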

How the results depend on the processing

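Under each of 18 alternatives 0 of the 40 genes passed the adjusted threshold. Over all genes 133 (1.04%) passed it with limma-voom with library weights and 0 under each other setting. At an unadjusted p under 0.05 the count over all genes, 488, became 740 with DESeq2's Wald test, 3633 with limma-voom with library weights, 165 with the replicate number as a block, 1461 without both libraries that stood apart, and 178 (without RA+Dipy replicate 4) to 1187 (without RA replicate 2) when 1 library was left out. For the 40 genes that count, 1, became 2 without a low-count filter and 3 with DESeq2's Wald test. It was 10 with limma-voom with library weights, where 28.5% of all genes reached that level. It was 0 with limma-voom and 0 with the replicate block. Leaving out 1 library gave 0 to 4 (4 without RA replicate 2, and 0 without RA replicate 4 or any RA+Dipy library). Same-numbered libraries deviated from their group means with correlations of −0.22, 0.12, 0.17 and −0.29 for numbers 1 to 4. Of the 4 RA libraries 1 correlated best with its own number, so no pairing by number was seen. The libraries that stood apart have different numbers and weigh on these values, so the check cannot exclude a pairing. The block changed no adjusted call. The median of the 40 ran from −0.01 (without RA replicate 4) to 0.17 (without RA+Dipy replicate 1).

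Of 21 named genes, 6 changed sign in 11 of 378 refits. Leaving out 1 library gave −0.018 (RA replicate 4) to 0.35 (RA replicate 2) for Ulk1, −0.21 (RA replicate 4) to 0.36 (RA+Dipy replicate 1) for Becn1, −0.39 (RA replicate 4) to 0.12 (RA+Dipy replicate 1) for Gabarapl1, −0.23 (RA replicate 4) to 0.40 (RA replicate 2) for Bnip3, and −0.019 (RA replicate 4) to 0.74 (RA replicate 2) for Atg9a. Becn1 was at −0.04 without RA+Dipy replicate 3 and Atg9a at −0.0065 without RA+Dipy replicate 4. Bnip3l, at most 0.23 (without RA replicate 2), was at −0.012 without both libraries, and Bnip3 at −0.17. Bnip3 was at −0.032 with limma-voom with library weights and Atg9a at −0.081 with limma-voom. The cause was not tested. With all 8 libraries the intervals of 17 genes include a 2-fold difference.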

Other observations

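Without the 2 libraries that stood apart, the 3 RA and 3 RA+Dipy libraries did not overlap for 6 of the 40 genes, where they did not for 14.1% of all 12796 genes. The 6, named after their values were seen, were Pik3c3, Pik3r4, Wipi1 and Nbr1, all higher in RA+Dipy (7.92% of all genes did so), and Map1lc3b and Gabarapl2, both lower (6.21%). Pik3r4, the regulatory partner of the lipid kinase, was at 10.4, 11.4 and 11.3 CPM in RA replicates 1 to 3 and at 12.7, 13.5 and 12.5 CPM in RA+Dipy replicates 2 to 4 (log2 fold change 0.23, adjusted p = 0.473). The receptor Nbr1 was at 62.2, 72.5 and 57.1 CPM against 75.1, 75.6 and 73.5 CPM (0.23, adjusted p = 0.476). Wipi1 was at 61.8, 60.4 and 61.3 CPM against 67.3, 63.7 and 62.3 CPM (0.08, adjusted p = 0.757). Gabarapl2 was at 36.7, 33.3 and 42.6 CPM against 32.5, 31.6 and 24.9 CPM (−0.33, adjusted p = 0.437). The differences are at most 0.33 log2 units in size among these 4 genes.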
